A study of Homo sapiens with 12 samples.

Results

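FaDu is a line of hypopharyngeal squamous cell carcinoma cells, and afatinib-resistant (AfaR) and erlotinib-resistant (ErlR) derivatives of it were compared here gene by gene. The comparison rested on 4 of the 12 RNA sequencing libraries of the series, 2 of FaDu AfaR and 2 of FaDu ErlR cells, chosen by their labels. All Ensembl genes of the deposited count files were considered, and 15092 of 58051 genes passed the filter on low counts. The ERCC spike-in rows were left out. The 2 FaDu parental libraries entered the same fit as a reference, so that each difference between the resistant lines can be set beside its distance from the starting cells. All 6 libraries carry the genotype label WT, 1 of the treatment labels Afatinib Resistant, Erlotinib Resistant or Parental, and the same batch label, and all cells were grown in EMEM with serum. Each resistant line was derived by exposing cells to rising amounts of 1 drug and kept under it, then held for a day without drug before experiments. The highest dose reached differed between the drugs. Each resistant label therefore stands for 1 selected cell population per drug, and the replicates are biological replicates of that population, not separate selections. What differs between AfaR and ErlR because of the drug and what differs because of the selected population cannot be told apart.

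EGFR (ERBB1), ERBB2, ERBB3 and ERBB4 form a family of receptor tyrosine kinases that pair with each other. They signal through RAS, RAF, MEK and ERK and through PI3K and AKT. Ligands of the family, which do not each bind every member, include TGFA, AREG, EREG and the neuregulins. Erlotinib binds EGFR reversibly at the ATP site, whereas afatinib binds EGFR, ERBB2 and ERBB4 covalently. ERK output can be read at the RNA level from genes that the pathway itself switches on, among them the phosphatases DUSP5 and DUSP6, the inhibitors SPRY2 and SPRY4, and immediate-early transcription factors such as EGR1. Head and neck squamous cancers often carry high EGFR levels, and resistance to its inhibitors is commonly described through other receptors, through a shift toward mesenchymal genes, or through drug efflux.

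Between 16383694 and 23399259 reads per FaDu library were counted on genes, with 20156109 and 23399259 in AfaR and 16408108 and 16383694 in ErlR. Spike-ins took 5.74% and 5.64% of reads in AfaR, 5.79% and 5.82% in parental cells and 3.95% and 4.60% in ErlR. The parental libraries, with 21867912 and 20441530 reads on genes, resembled AfaR in depth and spike-in share. The ErlR libraries were nearer to those of Cal27, the other cell line of the series (3.86% to 4.54%, 16334937 to 16689855 reads). Depth and spike-in share thus differed along with the resistant line, and their effects cannot be told apart. Scaling to the spike-ins in place of the genes shifted every AfaR over ErlR log2 fold change by about -0.30, and this shift is to be kept in mind for small differences. Replicates resembled each other more than the resistant lines did. Over 10053 genes, Pearson's r across genes of the log2 values was 0.9824 between the AfaR replicates, 0.9845 between the ErlR replicates and from 0.9443 to 0.9664 between an AfaR and an ErlR library, as a description, since genes are not independent replicates. The first principal component held 50.2% of the variance and set the AfaR libraries apart from the other 4, and the second, with 27.4%, set parental apart from ErlR cells. The squamous epithelial markers were keratins, desmosome genes, TP63, EPCAM, CDH1 and SFN. They summed to between 6009 and 12643 CPM (counts scaled to the TMM-normalized size of the library) in the 6 libraries. Fibroblast markers summed to between 4.70 and 10.3 CPM, leukocyte markers to between 11.9 and 20.0 and smooth muscle markers to between 4.61 and 12.0. Endothelial markers summed to between 3.11 and 19.9 CPM, with the highest value in AfaR replicate 2. FAP, CD3E, CD3D, MS4A1 and MYOCD were at 0 counts in every FaDu library.

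In all, 897 genes were called between the resistant lines, 671 higher in AfaR (4.45% of the genes tested) and 226 higher in ErlR (1.5%). Calling required a Benjamini-Hochberg adjusted p under 0.05 from edgeR's quasi-likelihood test and a log2 fold change beyond 1 either way. Without the fold limit, 1216 genes passed as higher in AfaR (8.06%) and 1155 as higher in ErlR (7.65%). In each of the 897 called genes the AfaR and ErlR libraries did not overlap. With 2 libraries per group the calling limits nearly require this, so it adds no support to the calls. From bulk RNA alone, more cells with a transcript and more transcript per cell cannot be told apart. The median log2 fold change of all tested genes was 0.01. Genes called higher in AfaR had a median log2 fold change of 1.29 over parental cells in AfaR and of -0.37 in ErlR. Those called higher in ErlR had medians of -0.68 in AfaR and 0.99 in ErlR. Both sets of values use the same parental libraries and are given as descriptions. The genes called higher in AfaR were of lower abundance, with a median of 6.81 CPM in the higher group against 12.6 CPM for those called higher in ErlR. The counts depended on the scaling and on single libraries. With spike-in scaling 437 genes were called higher in AfaR and 743 higher in ErlR. Leaving out AfaR replicate 2 gave 239 and 132 genes and leaving out ErlR replicate 2 gave 242 and 101, against 695 and 219 without AfaR replicate 1 and 479 and 264 without ErlR replicate 1.

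**Figure D1:**
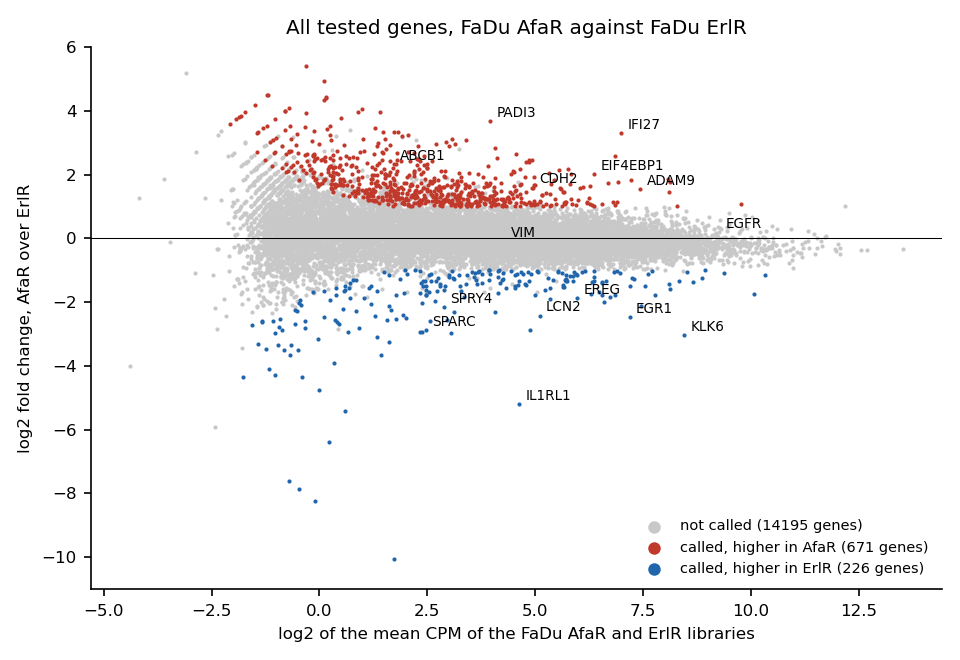
Each point is 1 of the 15092 tested genes, with the log2 of the mean CPM over the 4 AfaR and ErlR libraries on the x axis and the log2 fold change of AfaR over ErlR on the y axis. Red points are the 671 genes called higher in AfaR and blue points the 226 called higher in ErlR, and IL1RL1 and KLK6 lie at -5.20 and -3.03 among abundant genes while EGFR and VIM lie near 0.

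Among called genes that averaged 5 CPM or more in the higher group, those with the largest differences toward AfaR included PADI3, an enzyme that converts arginine to citrulline in keratinizing epithelia. PADI3 (ENSG00000142619, GRCh38 chromosome 1, 17249098 to 17284233) measured 17.1 and 40.6 CPM in the AfaR libraries, 2.11 and 2.41 in the ErlR libraries and 4.37 and 10.4 in the parental libraries (log2 fold change 3.67 with a standard error of 0.51, adjusted p = 0.00374). Its AfaR libraries were both above all others, and its ErlR libraries were both below the parental ones. The X-linked gene ARMCX1 stood at 6.35 and 5.78 CPM in AfaR and 0.497 and 0.697 in ErlR (log2 fold change 3.33 with a standard error of 0.36, adjusted p = 0.00177), and the parental libraries, at 0.285 and 0.356, were below both. ALDH1L2, the mitochondrial form of a folate-pathway dehydrogenase, had a like profile, with 7.71 and 5.90 CPM in AfaR, 0.622 and 0.824 in ErlR and 0.332 and 0.407 in parental cells (log2 fold change 3.22, adjusted p = 0.0019). Others of the 12 genes with the largest differences were TMEM229B, IFI27, ARHGEF25, MPV17L, PCDH10, LBH, JPH2 and C1R, with log2 fold changes from 2.97 to 3.32. LBH and C1R, the latter a protease of the complement cascade, differed between the AfaR replicates. LBH measured 8.42 and 29.4 CPM and C1R 5.13 and 17.9 CPM in AfaR, with 2.36 and 2.09 and 1.80 and 1.14 in ErlR, so that no AfaR library overlapped an ErlR library in either gene. C1R did not pass without AfaR replicate 2 (adjusted p = 0.0547), and without ErlR replicate 2 neither did (0.0531 for LBH and 0.0755 for C1R).

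Toward ErlR, the 12 largest differences among called genes that averaged 5 CPM or more were those of SNORD30, described last, and of 11 genes with log2 fold changes from -5.20 to -2.55. IL1RL1, the receptor for interleukin 33, measured 16.5 and 80.3 CPM in the ErlR libraries, 1.88 and 0.792 in the AfaR libraries and 13.3 and 7.59 in the parental libraries (log2 fold change -5.20 with a standard error of 0.76, adjusted p = 0.0044). The ErlR replicates were far apart, yet the AfaR libraries lay below every parental and ErlR library. KLK6, a secreted kallikrein protease (ENSG00000167755, GRCh38 chromosome 19, 50958631 to 50969673), gave 408 and 845 CPM in ErlR, 69.0 and 83.9 in AfaR and 346 and 331 in parental cells (log2 fold change -3.03 with a standard error of 0.29, adjusted p = 0.001). Here the AfaR libraries were set apart from the other 4. SPARC, a matrix glycoprotein, was at 9.07 and 10.3 CPM in ErlR and 1.65 and 0.990 in AfaR, on opposite sides of the parental 2.99 and 3.56 (log2 fold change -2.89 with a standard error of 0.32, adjusted p = 0.0019). CLMP, an adhesion molecule of the junctions, likewise had 36.9 and 66.6 CPM in ErlR, 8.32 and 5.94 in AfaR and 19.3 and 15.7 in parental cells (log2 fold change -2.86 with a standard error of 0.29, adjusted p = 0.00119). ANGPTL4, a secreted inhibitor of lipoprotein lipase, rested on ErlR replicate 2, with 5.16 and 24.1 CPM in ErlR and 2.35 and 1.39 in AfaR, and its adjusted p was 0.108 without that library. PLPPR5, ADGRF4, TMPRSS11E, WNT10A, ABCA12 and EGR3 completed the named genes, with log2 fold changes from -3.24 to -2.55. ANGPTL4 and TMPRSS11E did not pass without AfaR replicate 2 (adjusted p = 0.119 and 0.0763), and without ErlR replicate 2 ADGRF4 and TMPRSS11E did not (0.0665 and 0.0751). SNORD30, a small nucleolar RNA inside the host gene SNHG1, had 0 counts in both AfaR and both parental libraries and 97 and 115 counts in the ErlR libraries. Taking 3 counts over the group as the floor, it was at least 93.9-fold higher in ErlR, but its reads could not be told apart from those of its host gene, and mature small nucleolar RNAs lack the poly(A) tail that the library preparation selected for.

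The ERBB receptors themselves did not pass the test. EGFR measured 629.9 and 673 CPM in AfaR, 553 and 591 in ErlR and 534 and 494 in parental cells (log2 fold change 0.19 with a standard error of 0.10, adjusted p = 0.238). The AfaR libraries were the highest and the parental libraries the lowest. ERBB2 was at 84.8 and 94.2 CPM in AfaR and 86.6 and 82.1 in ErlR (log2 fold change 0.09, adjusted p = 0.622), and ERBB3 at 30.9 and 49.5 and 34.4 and 28.2 (log2 fold change 0.36, adjusted p = 0.281). With spike-in scaling the EGFR and ERBB2 differences took the opposite sign, at -0.12 and -0.22. ERBB4 was too low to test. Their ligands did differ. Of 8 tested ligands 3 passed, all higher in ErlR, and the median of the list was -0.63 against 0.01 for all genes. Over the ligands that each fit covered, the median was -0.05 without AfaR replicate 1 and -0.74 without AfaR replicate 2. It was -0.20 without ErlR replicate 1, 0.00 without ErlR replicate 2 and -0.20 with DESeq2. The filter on low counts was applied anew in each of these fits and was not used with DESeq2. The ligands covered can therefore differ between these medians, and a change of library cannot be told apart from a change of members. EREG (epiregulin) stood at 55.6 and 141 CPM in ErlR, 30.8 and 23.1 in AfaR and 99.7 and 87.4 in parental cells (log2 fold change -1.87 with a standard error of 0.35, adjusted p = 0.0106). AREG (amphiregulin) was at 39.4 and 81.8 CPM in ErlR and 27.5 and 21.0 in AfaR (log2 fold change -1.32 with a standard error of 0.31, adjusted p = 0.0232), and TGFA at 51.8 and 97.0 and 34.2 and 26.9 (log2 fold change -1.28 with a standard error of 0.27, adjusted p = 0.0151). For all 3 the AfaR libraries were below both parental libraries, while the ErlR libraries lay on both sides of at least 1 of them. HBEGF, at 9.70 and 30.9 CPM in ErlR and 10.7 and 8.75 in AfaR, did not pass (adjusted p = 0.114). Neuregulin 1 was at 41.8 and 38.8 and 33.8 and 46.5 CPM, with a log2 fold change of 0.01. Without AfaR replicate 2 none of the 3 ligands passed, and without ErlR replicate 2 only EREG did.

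Some genes that read out ERK activity were lower in AfaR than in ErlR. Of 13 tested members of the ERK feedback list 7 passed, all 7 higher in ErlR, and 11 of the 13 had a negative log2 fold change (median -0.86). DUSP6, the phosphatase that dephosphorylates ERK, measured 18.7 and 18.2 CPM in AfaR, 37.5 and 76.1 in ErlR and 42.6 and 51.2 in parental cells (log2 fold change -1.62 with a standard error of 0.28, adjusted p = 0.00734). SPRY4 was at 3.10 and 2.30 CPM in AfaR and 5.84 and 18.3 in ErlR (log2 fold change -2.16 with a standard error of 0.48, adjusted p = 0.0189), and SPRY2 at 4.00 and 3.45 and 7.96 and 12.2 (log2 fold change -1.44 with a standard error of 0.27, adjusted p = 0.0109). These 2 Sprouty proteins dampen receptor tyrosine kinase signalling. The ETS factor ETV4 gave 17.9 and 10.1 CPM in AfaR against 28.4 and 41.6 in ErlR (log2 fold change -1.33), and IER3 and PHLDA1 gave log2 fold changes of -1.13 and -1.33. DUSP5 passed below the fold limit (-0.76). DUSP6, DUSP5 and ETV4 fell below parental cells in AfaR, by 1.35, 1.46 and 1.34 on the log2 scale, whereas SPRY2 and PHLDA1 lay at -0.28 and -0.05 in AfaR and at 1.16 and 1.28 in ErlR. CCND1, a cyclin downstream of ERK, was -0.26 apart (adjusted p = 0.228). ErlR replicate 2 was the higher ErlR library for each of the 7 genes that passed. Without AfaR replicate 2 none of the 13 members passed and without ErlR replicate 2 only DUSP6 did, with an adjusted p of 0.0201. With spike-in scaling 11 of the 13 passed toward ErlR.

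The immediate-early list behaved alike in its counts, with 4 of 14 tested genes passing, all higher in ErlR, and a median of -0.83. With upper-quartile scaling 4 passed toward ErlR and 1 toward AfaR. The median was -0.54 without ErlR replicate 1 and -0.86 without AfaR replicate 1. EGR1, a zinc finger factor induced within minutes of growth factor stimulation, was at 58.2 and 30.9 CPM in AfaR and 309.6 and 184 in ErlR, and at 121 and 682 in the parental libraries, which differed widely from each other (log2 fold change -2.47 with a standard error of 0.66, adjusted p = 0.0354). EGR3 was steadier, at 0.893 and 0.832 CPM in AfaR, 5.35 and 4.82 in ErlR and 5.98 and 9.12 in parental cells (log2 fold change -2.55 with a standard error of 0.33, adjusted p = 0.003). The AP-1 subunit JUNB had 70.9 and 86.2 CPM in AfaR and 174 and 146 in ErlR (log2 fold change -1.03), and IER2 had 48.9 and 39.9 and 103 and 79.9 (log2 fold change -1.04). FOS, with 13.4 and 18.1 CPM in AfaR and 83.4 and 16.9 in ErlR, overlapped between the groups and did not pass (adjusted p = 0.241). MYC, at 184 and 221 CPM and 291 and 241 CPM, did not pass either (log2 fold change -0.40, adjusted p = 0.103). Only EGR3 still passed without AfaR replicate 2, and again without ErlR replicate 2, and only EGR3 of the 4 had an adjusted p under 0.05 with DESeq2 on 6 libraries, whereas all 4 had with DESeq2 on the 4 resistant libraries. Of the 16 tested genes of the RAS, RAF, MEK and ERK cascade itself 2 passed, HRAS and RRAS2, both higher in ErlR and below the fold limit (-0.90 and -0.48), and of 17 genes of the PI3K and AKT list IRS2 alone passed, higher in AfaR and below the fold limit (0.72).

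**Figure D2:**
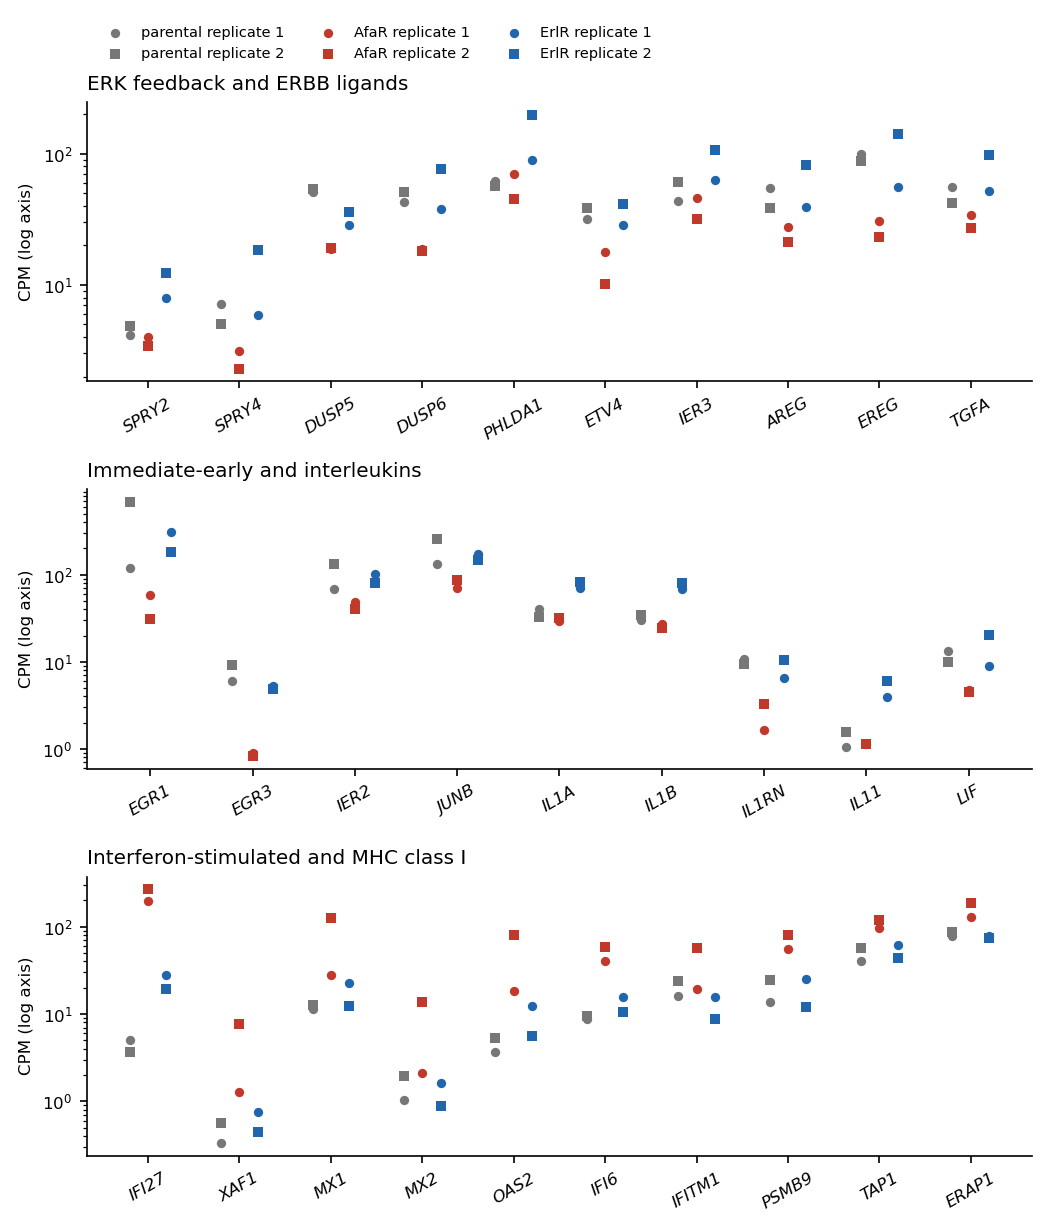
CPM (y axis, log scale) of named genes in each FaDu library, with circles for replicate 1 and squares for replicate 2, grey for parental, red for AfaR and blue for ErlR. In the upper and middle panels both AfaR libraries lie below both ErlR libraries for every gene shown. In the lower panel both lie above, with AfaR replicate 2 well above replicate 1 for XAF1, MX1, MX2, OAS2 and IFITM1. The genes shown were chosen among those that passed, so this separation adds no support. List members that did not pass, such as FOS, HBEGF, CXCL8, ISG15 and IFIT1, are not shown.

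Among interferon-stimulated genes the differences that passed ran the other way. Type I interferons act through JAK kinases and a complex of STAT factors with IRF9, which binds the interferon-stimulated response element and switches on antiviral genes. Of 42 tested genes 12 passed and 9 were called, all higher in AfaR, 37 of the 42 had a positive log2 fold change, and the median was 0.67. IFI27 (ENSG00000165949, GRCh38 chromosome 14, 94104836 to 94116698), a mitochondrial protein, measured 194 and 268 CPM in AfaR, 27.6 and 19.1 in ErlR and 5.08 and 3.72 in parental cells (log2 fold change 3.31 with a standard error of 0.22, adjusted p = 0.000267). Both resistant lines lay above the parental cells, and AfaR lay above ErlR. IFI6 gave 40.8 and 58.5 CPM in AfaR against 15.5 and 10.5 in ErlR (log2 fold change 1.93 with a standard error of 0.23, adjusted p = 0.00236). For the antiviral GTPases MX1 and MX2 and the RNA sensor OAS2 the difference rested on AfaR replicate 2. MX1 was at 27.8 and 125 CPM in AfaR and 22.4 and 12.2 in ErlR (log2 fold change 2.14 with a standard error of 0.56, adjusted p = 0.0346), OAS2 at 18.3 and 79.5 and 12.2 and 5.64 (log2 fold change 2.45 with a standard error of 0.60, adjusted p = 0.0264), and MX2 at 2.12 and 13.7 and 1.62 and 0.888 (log2 fold change 2.66 with a standard error of 0.77, adjusted p = 0.0472). XAF1, a binding partner of the inhibitor of apoptosis XIAP, had 1.27 and 7.61 CPM and 0.746 and 0.444 CPM (log2 fold change 2.90 with a standard error of 0.79, adjusted p = 0.0381). Without AfaR replicate 2 the adjusted p was 0.228 for MX1, 0.174 for OAS2, 0.46 for MX2 and 0.36 for XAF1, and 3 genes of the list (IFI27, IFI6 and IFITM2) passed as higher in AfaR and 1 (SAMD9) as higher in ErlR. Without ErlR replicate 2 the same 3 genes passed. With spike-in scaling the median was 0.37, and 9 genes passed toward AfaR and 2 toward ErlR (SAMD9 and IFI44). IFITM1 and IFITM2 were called as well, but they overlap on chromosome 11 and their counts may have been split between them. ISG15 (70.8 and 149.9 CPM in AfaR and 126 and 58.6 in ErlR) and IFIT1 (48.5 and 87.2 and 64.8 and 25.5 CPM) did not pass, and in both replicate 2 was the higher AfaR library and the lower ErlR library. The list of sensors and interferon pathway genes gave 3 passing genes toward AfaR and 2 toward ErlR of 19 tested.

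The promoters of the called interferon-stimulated genes with the largest log2 fold changes are shown because the response element can be looked for in them directly. They come from RefSeq on GRCh38.p14, 5′ to 3′ on the strand of the gene, as the bases upstream of an annotated start that lie outside every exon of GENCODE v44. Capitals mark matches to the core of the response element, GAAA followed by any 2 bases and GAAA again, on either strand. MX2 and OAS2 had no entry in the table, and XAF1 is shown although no match was found in it.
IFI27 (chr14:94110486-94110677, plus strand): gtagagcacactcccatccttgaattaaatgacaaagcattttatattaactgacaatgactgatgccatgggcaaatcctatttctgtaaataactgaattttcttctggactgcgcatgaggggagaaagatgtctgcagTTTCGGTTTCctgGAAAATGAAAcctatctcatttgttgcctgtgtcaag
XAF1 (chr17:6755197-6755446, plus strand): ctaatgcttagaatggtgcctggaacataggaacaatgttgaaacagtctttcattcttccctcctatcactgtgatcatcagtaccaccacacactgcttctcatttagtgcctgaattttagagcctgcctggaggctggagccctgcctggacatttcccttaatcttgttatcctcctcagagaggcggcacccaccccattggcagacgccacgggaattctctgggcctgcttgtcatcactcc
MX1 (chr21:41431800-41432030, plus strand): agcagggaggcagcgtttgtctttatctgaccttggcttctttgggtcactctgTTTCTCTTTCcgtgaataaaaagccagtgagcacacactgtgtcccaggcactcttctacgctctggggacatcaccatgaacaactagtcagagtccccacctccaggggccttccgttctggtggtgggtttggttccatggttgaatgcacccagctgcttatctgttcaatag
IFI6 (chr1:27672213-27672442, minus strand): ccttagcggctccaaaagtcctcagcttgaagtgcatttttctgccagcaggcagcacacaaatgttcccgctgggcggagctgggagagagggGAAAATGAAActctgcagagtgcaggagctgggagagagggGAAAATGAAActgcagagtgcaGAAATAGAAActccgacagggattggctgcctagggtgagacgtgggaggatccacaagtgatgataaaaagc
The IFI27 stretch held 2 matches, at -108 and -95 from the start, the IFI6 stretch held 3, at -156, -115 and -93, and the MX1 stretch, upstream of 1 of its 3 listed starts, held 1 at -196. For a gene with several starts the window with the most matches was printed, and the other MX1 windows held no match. Over all genes, 1061 of 35116 windows of 250 upstream bases held a match (3.02%). Of the 33 tested interferon-stimulated genes with a window 23 had a match in at least 1 of their windows (69.7%), compared with 372 of all 11141 tested genes with a window (3.34%). The share was 6 of 9 among members that passed between AfaR and ErlR (66.7%) and 17 of 24 among those that did not (70.8%). A match describes the sequence and is not a measured binding site.

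MHC class I molecules present peptides to T cells. Of 15 tested genes of this list 6 passed, all higher in AfaR, 4 were called and 9 did not pass, with a median of 0.50. ERAP1 alone passed without AfaR replicate 2, and again without ErlR replicate 2, and with spike-in scaling 4 passed toward AfaR and 1 toward ErlR. The immunoproteasome subunit PSMB9 had 55.0 and 80.1 CPM in AfaR and 25.5 and 12.2 in ErlR (log2 fold change 1.84 with a standard error of 0.35, adjusted p = 0.0111), and PSMB10 had 28.5 and 52.1 and 20.5 and 18.3 (log2 fold change 1.06). The peptide transporter TAP1 was at 97.1 and 119 CPM and 60.9 and 43.6 CPM (log2 fold change 1.05). The annotated spans of TAP1 and PSMB9 overlap on opposite strands, so that some reads may belong to either. ERAP1, which trims peptides in the endoplasmic reticulum, was at 128 and 185 CPM in AfaR and 78.2 and 73.6 in ErlR (log2 fold change 1.04 with a standard error of 0.17, adjusted p = 0.00558). B2M, the light chain of MHC class I, was 0.46 apart (adjusted p = 0.0526). Of 10 tested MHC class II genes 1 passed, CTSS, a cathepsin that also has other roles, at 1.22.

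Of 18 tested cytokine, chemokine and NF-kB feedback genes 5 were called, all higher in ErlR, whereas the list median was 0.09 and 10 genes had a positive log2 fold change. With spike-in scaling 7 passed toward ErlR and 1 toward AfaR. Over the members that each fit tested, which can differ, the list median was 0.39 without AfaR replicate 1 and -0.20 without AfaR replicate 2. It was -0.05 without ErlR replicate 1 and 0.43 without ErlR replicate 2. IL1B measured 69.2 and 79.7 CPM in ErlR, 27.2 and 24.7 in AfaR and 30.5 and 34.1 in parental cells (log2 fold change -1.52 with a standard error of 0.13, adjusted p = 0.000665). IL1A was at 69.8 and 82.9 CPM and 29.1 and 31.5 CPM (log2 fold change -1.33 with a standard error of 0.15, adjusted p = 0.0019), and their receptor antagonist IL1RN at 6.46 and 10.6 and 1.65 and 3.29 (log2 fold change -1.77 with a standard error of 0.36, adjusted p = 0.0132). For IL1A and IL1B the ErlR libraries lay above both parental libraries, at log2 fold changes over them of 1.05 and 1.20. For IL1RN it was AfaR that stood apart, at -2.03 over parental cells. LIF and IL11, cytokines of the interleukin 6 family, gave log2 fold changes of -1.66 and -2.13, with 3.98 and 6.02 CPM for IL11 in ErlR and 1.13 and 1.15 in AfaR. CXCL8, at 12.8 and 22.2 CPM and 11.5 and 20.0 CPM, overlapped between the groups. IL1B, IL1A, IL1RN and IL11 still passed without AfaR replicate 2, and IL1B and IL1A without ErlR replicate 2.

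Serpins are inhibitors of proteases, many of them secreted. Of 10 tested serpin and plasminogen activation genes 5 passed, all higher in ErlR, and 4 of the 10 had a positive log2 fold change (median -0.77). Without AfaR replicate 2, 1 gene passed toward ErlR and 1 toward AfaR, and without ErlR replicate 2 only SERPINB5 passed, toward ErlR. SERPINB5 (maspin), a serpin of epithelial cells, was at 48.4 and 75.4 CPM in ErlR and 29.6 and 30.03 in AfaR (log2 fold change -1.05 with a standard error of 0.20, adjusted p = 0.0101). SERPINB2 was called on ErlR replicate 2, with 0.124 and 5.83 CPM in ErlR and 0 and 0.119 in AfaR (log2 fold change -5.41, standard error 1.56), and its adjusted p was 0.781 without that library. Of 11 tested genes of the cornified envelope list 3 were called, all kallikreins of the cluster on chromosome 19. Beside KLK6, KLK5 measured 259.6 and 309.6 CPM in ErlR and 49.1 and 81.1 in AfaR (log2 fold change -2.13 with a standard error of 0.21, adjusted p = 0.00106), and KLK10 118 and 213 and 18.2 and 73.9 (log2 fold change -1.84 with a standard error of 0.51, adjusted p = 0.0402), though KLK10 did not pass without ErlR replicate 2 (adjusted p = 0.192). KLK5 cleaves desmosomal proteins during shedding of keratinocytes. Periplakin (PPL) passed in the other direction (0.58), and 14 of the 25 list members were too low to test or were not found by symbol. Of 18 tested keratins, KRT16, KRT80 and KRT81 passed, all higher in AfaR, and KRT16, at 5.92 and 14.5 CPM in AfaR and 1.55 and 2.28 in ErlR, has close paralogs. KRT16 and KRT81 did not pass without AfaR replicate 2 or without either ErlR library. KRT13, a keratin of mucosal surfaces, overlapped between the lines, at 1.46 and 19.8 CPM in AfaR and 4.60 and 22.5 in ErlR (adjusted p = 0.829), with 102 and 160.4 in parental cells.

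Mesenchymal genes did not move as a block. Of 26 tested mesenchymal and matrix genes 9 passed as higher in AfaR and 3 as higher in ErlR, with a median of 0.30. CDH2 (N-cadherin), the cadherin of mesenchymal and neural cells, measured 45.9 and 47.5 CPM in AfaR, 20.2 and 10.8 in ErlR and 13.9 and 20.4 in parental cells (log2 fold change 1.59 with a standard error of 0.27, adjusted p = 0.00736). Both AfaR libraries were above all others, while the ErlR libraries lay on both sides of the parental ones. VIM (vimentin) stood at 21.1 and 16.9 CPM in AfaR, 19.9 and 20.1 in ErlR and 20.3 and 16.7 in parental cells and did not differ by the test (log2 fold change -0.08 with a standard error of 0.17, adjusted p = 0.791). CDH1 (E-cadherin) was at 291 and 375 CPM in AfaR and 219 and 261 in ErlR, which just missed the limit (log2 fold change 0.47 with a standard error of 0.14, adjusted p = 0.0552). Collagen VI chains were prominent toward AfaR. COL6A2 had 25.4 and 33.6 CPM in AfaR and 3.11 and 5.13 in ErlR (log2 fold change 2.84 with a standard error of 0.26, adjusted p = 0.000727), and COL6A1 26.9 and 35.7 and 9.94 and 12.9 (log2 fold change 1.45 with a standard error of 0.21, adjusted p = 0.00413), and both were still called when any 1 AfaR or ErlR library was left out. FBLN5, COL4A1 and THBS1 were called in the same direction, at 2.10, 1.12 and 1.01. SPARC and COL1A2 were called toward ErlR, the latter at only 0.746 and 1.58 CPM in the ErlR libraries. COL1A2 did not pass without AfaR replicate 2 or without either ErlR library, and FBLN5 did not without ErlR replicate 2. Of 15 tested transcription factors of the epithelial-mesenchymal transition and their antagonists, KLF4 alone passed, at 50.3 and 67.5 CPM in AfaR and 29.6 and 15.2 in ErlR (log2 fold change 1.40 with a standard error of 0.30, adjusted p = 0.0171). Its adjusted p was 0.101 without AfaR replicate 2 and 0.0743 without ErlR replicate 2, and then no gene of the list passed. ZEB1, SNAI2 and TWIST1 gave -1.07, -0.11 and 0.03 and did not pass. Among 20 tested junction genes CGN (cingulin) and CLDN1 (claudin 1) were called toward AfaR and PKP3 and DSC2 passed toward ErlR below the fold limit. CGN was at 22.1 and 22.5 CPM and 6.90 and 7.23 CPM (log2 fold change 1.66 with a standard error of 0.19, adjusted p = 0.00198), and CLDN1, at 71.2 and 244 and 55.1 and 39.1, rested on AfaR replicate 2 (adjusted p = 0.148 without it).

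Matrix metalloproteinases and their inhibitors gave 4 called genes of 15, all higher in AfaR, whereas 8 of the 15 were positive and 7 negative (median 0.15). With DESeq2 on 6 libraries, run without the filter on low counts, the median was -0.13. It covered the members that DESeq2 fitted, which can be more than the 15. With spike-in scaling it was -0.11, and 2 genes passed toward AfaR and 4 toward ErlR. MMP2, a gelatinase, was at 11.1 and 17.2 CPM in AfaR, 2.05 and 1.71 in ErlR and 1.23 and 2.65 in parental cells (log2 fold change 2.91 with a standard error of 0.38, adjusted p = 0.00324). MMP13 was called toward AfaR at 12.0 and 20.2 CPM and 2.61 and 7.54 CPM, and both lines lay far below the parental 73.8 and 115 CPM (log2 fold change 1.67 with a standard error of 0.42, adjusted p = 0.0304). TIMP2 and TIMP3 gave 1.06 and 1.098, and under spike-in scaling neither stayed under the adjusted p limit. The integrin list had 1 called gene each way of 18, beside 4.45% of all tested genes called toward AfaR and 1.5% toward ErlR. ITGA6, the integrin of hemidesmosomes, was at 278 and 524 CPM in ErlR, 158 and 141 in AfaR and 262 and 273 in parental cells (log2 fold change -1.42 with a standard error of 0.24, adjusted p = 0.00698), and LAMB2 was called toward AfaR (1.04). Of these genes MMP13, TIMP2, TIMP3, ITGA6 and LAMB2 did not pass without AfaR replicate 2 (adjusted p = 0.167, 0.158, 0.158, 0.053 and 0.118).

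Among receptors often named as bypass routes around EGFR, MET and AXL did not pass. MET measured 243 and 230.4 CPM in AfaR and 206 and 234 in ErlR (log2 fold change 0.11 with a standard error of 0.12, adjusted p = 0.583), and AXL 222 and 201 and 288 and 206 (log2 fold change -0.22, adjusted p = 0.381). Of 17 tested receptors 5 passed, all higher in AfaR. ROR1 was at 10.7 and 7.92 CPM and 3.05 and 3.55 CPM (log2 fold change 1.496 with a standard error of 0.28, adjusted p = 0.0103), the insulin receptor INSR at 4.75 and 5.19 and 1.43 and 2.28 (log2 fold change 1.42 with a standard error of 0.35, adjusted p = 0.0274), and FGFR1 at 13.2 and 11.01 and 4.66 and 4.56 (log2 fold change 1.39 with a standard error of 0.23, adjusted p = 0.00617). FGFR3, at 27.9 and 56.7 CPM in AfaR and 19.8 and 21.1 in ErlR, was called as well (1.05), with the AfaR libraries on either side of the parental 39.7 and 33.0 CPM and the ErlR libraries below them, and its adjusted p was 0.164 without AfaR replicate 2. EPHB4 passed below the fold limit. INSR did not pass when any 1 of the AfaR or ErlR libraries was left out, and 2 of the 17 receptors passed without AfaR replicate 2 or without ErlR replicate 2. LRIG1, a negative regulator of ERBB receptors, was the only called gene of the 8 in its list, at 9.08 and 12.0 CPM in AfaR, 3.11 and 2.79 in ErlR and 1.23 and 1.73 in parental cells (log2 fold change 1.84 with a standard error of 0.28, adjusted p = 0.00482).

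Of 10 tested ABC transporters 5 passed toward AfaR and 1 toward ErlR (median 0.79). ABCB1 (P-glycoprotein), the multidrug efflux pump, measured 5.27 and 5.78 CPM in AfaR, 0.994 and 1.20 in ErlR and 0.570 and 0.560 in parental cells (log2 fold change 2.32 with a standard error of 0.32, adjusted p = 0.00372). ABCG1 and ABCA1, which export cholesterol, were at 3.71 and 3.41 and 5.27 and 5.94 CPM in AfaR and at 0.559 and 0.507 and 1.93 and 1.78 CPM in ErlR (log2 fold changes 2.72 and 1.596). ABCC1 passed below the fold limit (0.74), TAP1 has been described among the MHC genes, and ABCG2, at 2.82 and 3.01 and 1.31 and 1.97 CPM, did not pass. ABCA12, a lipid transporter of the epidermal barrier, ran toward ErlR, at 11.7 and 15.02 CPM against 1.93 and 2.57 in AfaR (log2 fold change -2.56 with a standard error of 0.34, adjusted p = 0.00342). ABCB1, ABCG1 and ABCA12 passed when any 1 AfaR or ErlR library was left out, whereas ABCA1 did not without AfaR replicate 2 (adjusted p = 0.063) or ErlR replicate 2 (0.0668).

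Signalling genes of the TGF-beta, WNT and NOTCH families were split between the lines. Of 25 tested TGF-beta and BMP genes 5 passed toward AfaR and 1 toward ErlR. TGFB2 was at 9.08 and 19.1 CPM in AfaR and 5.22 and 2.92 in ErlR (log2 fold change 1.79 with a standard error of 0.38, adjusted p = 0.0163), and INHBA, which encodes the activin A subunit, was at 4.23 and 4.06 in ErlR and 0.611 and 0.911 in AfaR (log2 fold change -2.42 with a standard error of 0.43, adjusted p = 0.0086). TGFB1 just missed the limit (log2 fold change -0.69 with a standard error of 0.21, adjusted p = 0.0538). In the WNT list 5 of 24 passed toward AfaR and 2 toward ErlR. DKK3, a secreted protein of the Dickkopf family, was at 51.2 and 51.7 CPM in AfaR, 8.52 and 10.3 in ErlR and 10.2 and 15.1 in parental cells (log2 fold change 2.45 with a standard error of 0.20, adjusted p = 0.000451), and the receptor FZD2 at 22.7 and 25.8 and 9.82 and 7.67 (log2 fold change 1.47 with a standard error of 0.20, adjusted p = 0.00342). WNT5A gave 2.72, and the ligand WNT10A ran the other way, at 14.3 and 5.83 CPM in ErlR, 15.7 and 21.5 in parental cells and 1.18 and 2.14 in AfaR (log2 fold change -2.58 with a standard error of 0.44, adjusted p = 0.00746). Of 13 NOTCH genes 2 passed toward AfaR, among them the glycosyltransferase LFNG (1.02), and 1 toward ErlR. TGFB2 and WNT5A did not pass without AfaR replicate 2 (adjusted p = 0.102 and 0.0925) or ErlR replicate 2, and LFNG did not without ErlR replicate 2.

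The mitotic kinase AURKA, which the study followed in these models, was not called between AfaR and ErlR. AURKA measured 118 and 149 CPM in AfaR and 121 and 125 in ErlR (log2 fold change 0.12 with a standard error of 0.12, adjusted p = 0.527), and its activator TPX2 459 and 503 and 503 and 585 (log2 fold change -0.18 with a standard error of 0.11, adjusted p = 0.302). Under spike-in scaling the sign of the AURKA difference turned, to -0.18, and TPX2 passed toward ErlR at -0.47. The scaffold protein NEDD9 was at 6.11 and 18.1 CPM in AfaR and 6.46 and 2.66 in ErlR, so that the groups overlapped (log2 fold change 1.41 with a standard error of 0.53, adjusted p = 0.101). WEE1, the kinase that holds CDK1 inactive, was at 20.4 and 24.0 CPM in AfaR and 30.6 and 30.7 in ErlR and just missed the limit (log2 fold change -0.46 with a standard error of 0.14, adjusted p = 0.0547), and CDK1 gave -0.10 (adjusted p = 0.59). In the 17 tested genes of this list AJUBA and CDC25A passed toward ErlR and CDC25B toward AfaR. AJUBA, a LIM protein that binds and activates AURKA, was the called gene of the list, at 2.73 and 2.16 CPM in ErlR and 0.987 and 0.990 in AfaR (log2 fold change -1.30 with a standard error of 0.36, adjusted p = 0.0403), and it did not pass with DESeq2, with the replicate block (adjusted p = 0.0553) or when any 1 of the 6 libraries was left out. No gene of the list passed without AfaR replicate 2 or without ErlR replicate 2, and with spike-in scaling 9 passed, all toward ErlR, among them WEE1 at -0.77. Of 20 mitosis genes 3 passed and none was called, beside 8.06% of all tested genes that passed toward AfaR and 7.65% toward ErlR. Of 20 tested replication genes 6 passed, all higher in ErlR and all below the fold limit, and 16 had a negative log2 fold change (median -0.28, within the shift that spike-in scaling makes and enlarged by it to -0.58). MCM7, a subunit of the replicative helicase, was at 356 and 417 CPM in AfaR, 623 and 619.7 in ErlR and 679 and 662 in parental cells (log2 fold change -0.69 with a standard error of 0.11, adjusted p = 0.00568), MCM6 at 166 and 157 and 269 and 252 (log2 fold change -0.69 with a standard error of 0.10, adjusted p = 0.00436), and RRM2 at 139 and 125 and 214 and 227 (log2 fold change -0.74 with a standard error of 0.12, adjusted p = 0.00578). Of the G1 list, CCND2 was called toward AfaR at 377 and 487 CPM against 132 and 123 in ErlR and 69.2 and 89.8 in parental cells (log2 fold change 1.76 with a standard error of 0.16, adjusted p = 0.000755), as was the CDK inhibitor CDKN2C (1.45).

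**Figure D3:**
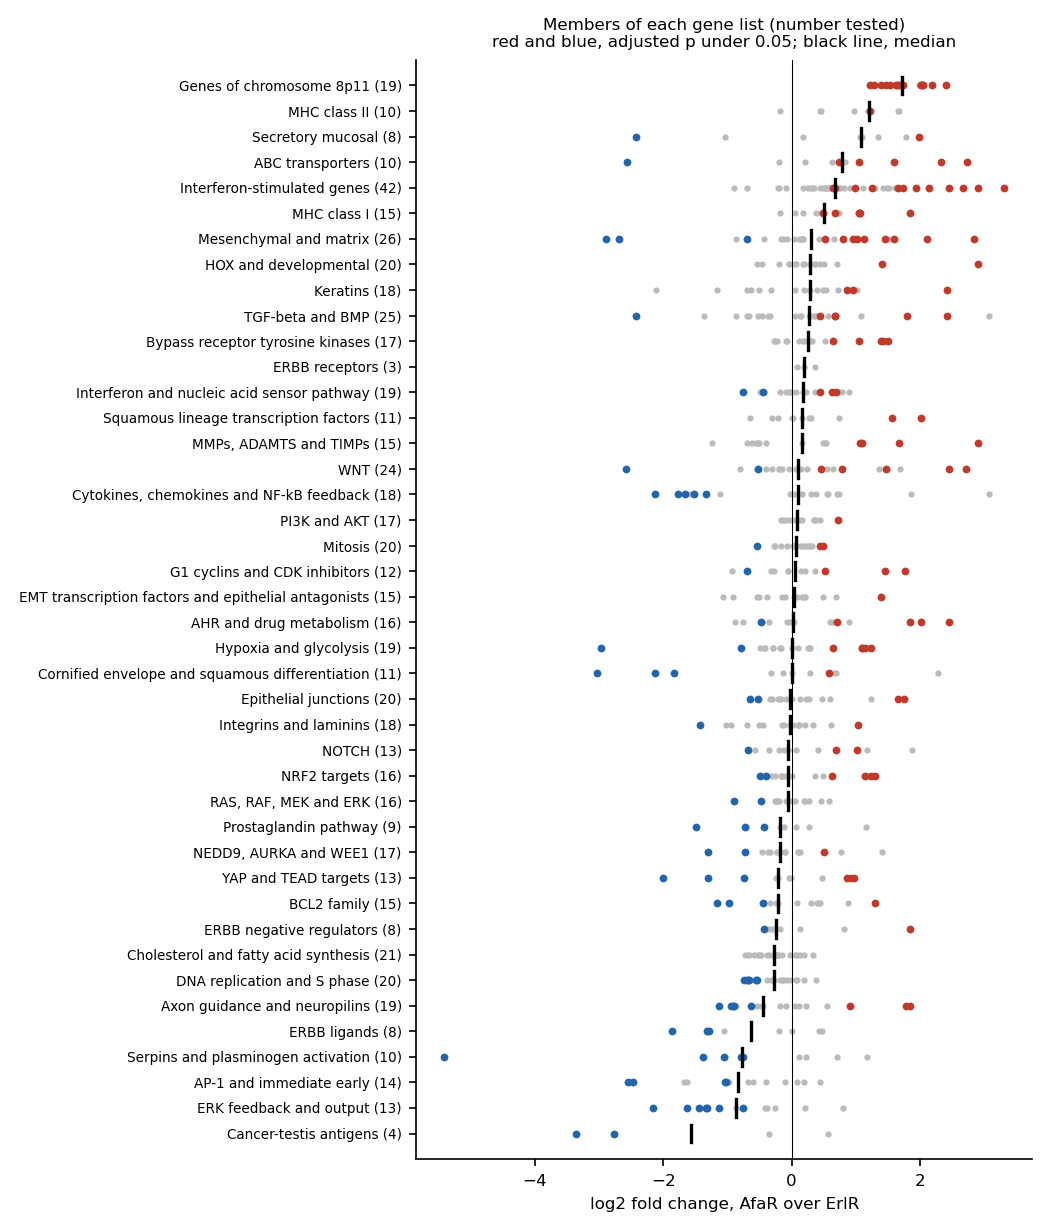
Log2 fold changes of AfaR over ErlR (x axis) of the tested members of each gene list (rows, with the number tested), red where the adjusted p was under 0.05 and higher in AfaR, blue where it was under 0.05 and higher in ErlR, grey otherwise, with a black line at the median. The 8p11 list has the highest median, 1.71, and nearly all of its points are red, while the points that passed are all blue in the ERK feedback, immediate-early, ERBB ligand, serpin and replication lists.

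The list with the most called genes was defined by position, not by function. It holds genes of 8p11, a neighbourhood known to be gained together in some carcinomas (DNA copy number was not measured here), and it was drawn up with earlier results of these data known, so that its count is a description. Of its 19 tested genes 18 were called, all higher in AfaR, and the log2 fold changes lay between 1.22 and 2.40 with a median of 1.71. The genes span chromosome 8 from 37695751 to 39105144 on GRCh38. EIF4EBP1, which binds the cap-binding factor eIF4E and holds back translation, measured 141 and 123 CPM in AfaR, 31.6 and 34.1 in ErlR and 27.7 and 28.5 in parental cells (log2 fold change 2.01 with a standard error of 0.12, adjusted p = 0.000267). TACC1, a centrosomal coiled-coil protein, was at 89.7 and 88.7 CPM in AfaR, 17.7 and 21.6 in ErlR and 18.9 and 20.1 in parental cells (log2 fold change 2.18 with a standard error of 0.14, adjusted p = 0.000267). The membrane protease ADAM9 was at 251 and 265 CPM in AfaR against 87.3 and 90.4 in ErlR (log2 fold change 1.54 with a standard error of 0.10, adjusted p = 0.000267). ASH2L, a subunit of histone H3K4 methyltransferases, was at 86.3 and 96.4 CPM and 22.8 and 22.00 CPM (log2 fold change 2.03 with a standard error of 0.15, adjusted p = 0.0004), and the H3K36 methyltransferase NSD3 at 108 and 128 and 39.9 and 35.6 (log2 fold change 1.64 with a standard error of 0.14, adjusted p = 0.000464). RAB11FIP1 had the largest difference, with 36.4 and 60.8 CPM in AfaR and 9.45 and 9.00 in ErlR (log2 fold change 2.40 with a standard error of 0.23, adjusted p = 0.00106). In each of the named genes the AfaR replicates lay close together except in RAB11FIP1, and no ErlR library reached an AfaR library. FGFR1, described above, lies in the same span. ADGRA2, at 0.799 and 1.94 CPM in AfaR, did not pass (adjusted p = 0.0819). Over parental cells the median of the list was 1.66 in AfaR and 0.00 in ErlR. Several neighbours overlap in the annotation (ADGRA2 with BRF2, LSM1 with BAG4, DDHD2 with PLPP5), and whether reads were counted by strand is not given in the sources used here. Leaving out AfaR replicate 2 or ErlR replicate 2 left 17 genes passing in each case.

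The genes next to this span were not called. The 10 tested genes before it, between 30678061 and 35525763, had a median log2 fold change of -0.04 with a range from -0.69 to 0.74, and none was called. The 10 tested genes after it had a median of 0.10 with a range from -0.38 to 1.76, and none was called. Among the flanking genes NRG1 was at 0.01 and KAT6A at -0.23. IDO1 had the largest value, 1.76, with an adjusted p of 0.399.

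**Figure D4:**
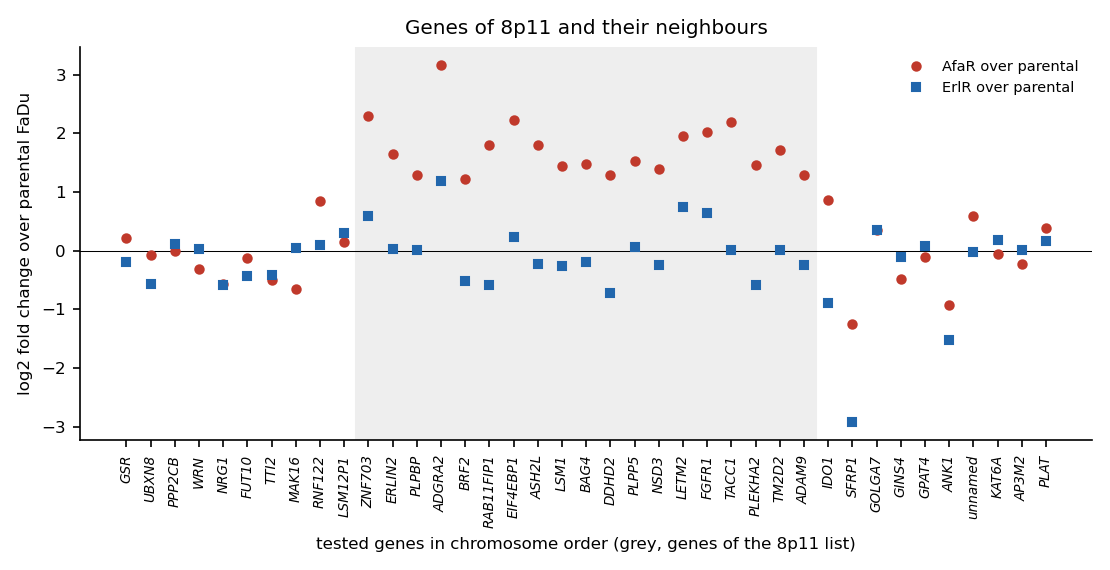
Log2 fold change over parental FaDu cells (y axis) of AfaR (red circles) and ErlR (blue squares) for tested genes in chromosome order (x axis), with the 19 genes of the 8p11 list on grey and 10 neighbours on either side. All 19 red circles on grey lie above 1, while the blue squares there scatter around 0, with a median of 0.00.

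Running medians over 31 neighbouring genes were used to describe other stretches, with no test. A stretch was kept where the median was over 0.5 in size, and 17 were found on chromosomes 1, 2, 8, 9, 11, 14 and 16. After the window around 8p11 (median 1.62) the largest was on chromosome 16 between 10944488 and 15625028, where the median was 0.86, all 31 genes were positive, 20 passed and 11 were called toward AfaR. MPV17L (3.10), CPPED1 (2.04) and BMERB1 (2.00) had the largest differences there. Over parental cells the same 31 genes had a median of 0.91 in AfaR and 0.01 in ErlR. On chromosome 2 between 196639554 and 201287711 the median was -0.81, 29 of 31 genes were negative, and 22 passed and 9 were called toward ErlR, with AOX1 at -2.21, SPATS2L at -1.77, CLK1 at -1.71 and BZW1 at -1.57. In it the medians over parental cells were -0.54 in AfaR and 0.27 in ErlR. Chromosome 2 held 5 of the stretches toward ErlR, and over all of its 989 tested genes the median was -0.24, with 18 genes called toward AfaR and 45 toward ErlR. IL1RN, IL1B and IL1A lie together in another of these stretches, and ABCA12 lies in 1 more. Stretches on chromosome 1 included one between 153990759 and 155244699 (median 0.70, 17 genes passing), in which the mucin MUC1 was called at 1.98 (adjusted p = 0.0918 without AfaR replicate 2). With spike-in scaling these medians were 1.32 for the window around 8p11, 0.55 on chromosome 16, -1.11 for the chromosome 2 stretch and 0.38 for that on chromosome 1.

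The same contrast was available in Cal27, a squamous carcinoma line of the tongue, from 2 AfaR and 2 ErlR libraries made from separate selections in that line. They carry the same genotype and batch labels. The difference of AfaR minus ErlR was tested between the lines as an interaction in 1 fit of all 12 libraries, and 2679 of 16240 genes were called (16.5%), 1184 with a higher and 1495 with a lower value in FaDu. Of the 14 genes named by symbol, 8 passed the interaction test. VIM, with a log2 fold change of -0.08 in FaDu, stood at 5.65 in Cal27 (adjusted p = 2.23e-08 for the interaction). CDH2 was higher in AfaR in both lines, by 1.59 in FaDu and 3.13 in Cal27 (adjusted p of the difference 0.00486). CDH1 lay at 0.47 in FaDu and -1.77 in Cal27, and EGFR at 0.19 and -1.08. Among the 24 genes with the largest differences in FaDu, SPARC took opposite signs, -2.89 in FaDu and 3.95 in Cal27 (adjusted p = 1.53e-06 for the interaction). PADI3 (3.67 and 4.29), ARMCX1 (3.33 and 4.62) and EGR3 (-2.55 and -3.81) had the same sign in both lines, and their interactions did not pass. The ligands AREG and TGFA were lower in AfaR in both lines, at -1.32 and -1.28 in FaDu and -4.17 and -3.19 in Cal27, and the difference between the lines passed for both (0.00197 and 0.00851). DUSP6 gave -1.62 in FaDu and -2.98 in Cal27, whereas SPRY2 gave -1.44 and 0.63 (adjusted p = 0.000537 for the interaction). Of the 8p11 genes, EIF4EBP1 was at -0.52, TACC1 at 0.93 and FGFR1 at 5.73 in Cal27, and the interaction passed for all of them. The genes with the largest differences were picked for their size in FaDu, so no more is read from how many of them differ.

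**Figure D5:**
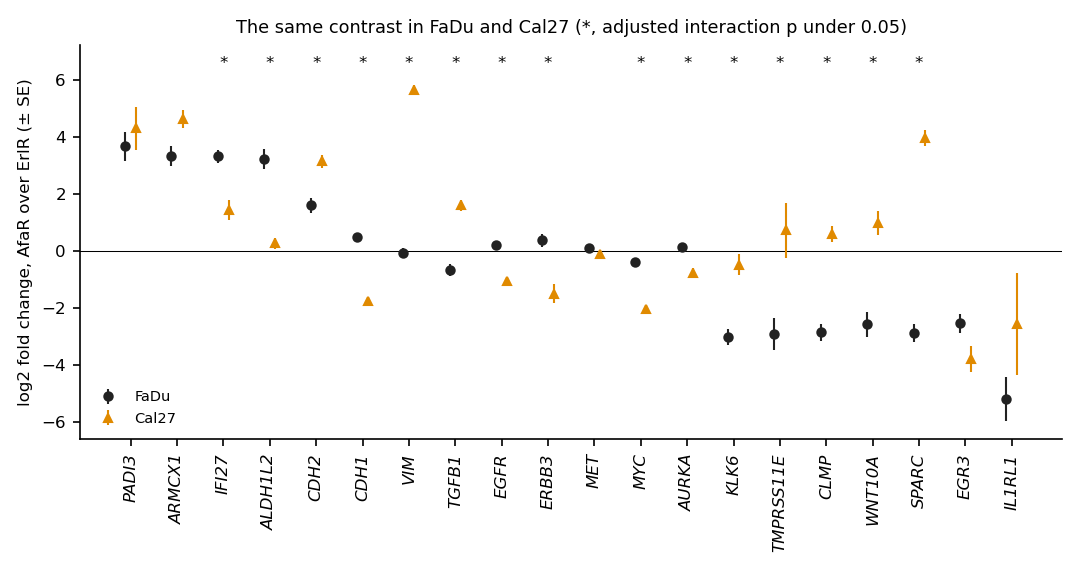
Log2 fold change of AfaR over ErlR with its standard error (y axis) in FaDu (black circles) and Cal27 (orange triangles) for 20 named genes (x axis), with an asterisk where the adjusted p of the interaction was under 0.05. VIM and SPARC are the genes in which the lines lie farthest apart, while PADI3, ARMCX1 and EGR3 lie on the same side in both.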

How the data were processed

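Poly(A) RNA of 6 FaDu libraries (2 parental, 2 AfaR, 2 ErlR) and 6 Cal27 libraries of the same groups was sequenced with ERCC spike-ins. Per the submitters' processing notes the authors trimmed reads with Trimmomatic 0.36, aligned them to GRCh38 with STAR 2.5.2b and counted them per Ensembl gene with featureCounts of Subread 1.5.2; whether strand was used is not given in the sources used here. The deposited raw counts per gene were used. The tables of normalized counts, in which AfaR and ErlR were scaled separately, were not used. All columns used belonged to a sample (0 without one).

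The 92 ERCC rows were left out, which left 58051 gene rows. Of the gene IDs 56948 matched GENCODE v44 and 41445 had a symbol, and coordinates are from GENCODE v44 on GRCh38. Counts were TMM-normalized, filtered with filterByExpr and fitted with edgeR 4.0.16 (R 4.3.3; glmQLFit and glmQLFTest) over the 6 FaDu libraries with group only, which left 3 residual degrees of freedom (biological coefficient of variation 14.5%). P-values were adjusted by Benjamini-Hochberg over all 15092 genes tested. Genes were called at an adjusted p under 0.05 where the log2 fold change also exceeded 1 either way. The interaction with cell line was fitted over 12 libraries and 16240 genes. Replicates are biological replicates of 1 selected population each, so p-values measure the spread between such replicates only. No pair of replicates agreed within sampling noise. With 16383694 to 23399259 counts per library, counting error is small beside the replicate spread except for low genes.

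On simulated data for FaDu AfaR against FaDu ErlR, 156 of 200 genes made to differ by 1 on the log2 scale were recovered (78%, 14745 genes), and 192 of 200 made to differ by 2 (96%, 14737 genes). Recovery here required an adjusted p under 0.05 alone, without the fold limit. A difference of 1 lies at that limit, so fewer of these genes would be called. The genes made to differ were drawn from those that averaged more than 1 CPM. The simulated spread followed the fitted trend with abundance, with no spread particular to a gene, and held no library that stood apart. Named were the 12 largest called differences in each direction with a mean of at least 5 CPM in the higher group, at most 4 called genes of a list in its leading direction and 2 in the other, at most 4 genes of a stretch, and EGFR, ERBB2, ERBB3, MET, CDH1, CDH2, VIM, NEDD9, AURKA, TPX2, WEE1, CDK1, MYC and TGFB1. A few genes that this rule names are not reported here. Other members of the lists that the text names were chosen after their values were seen. The 42 lists were written from general knowledge. The comparison, the lists and the rules were chosen with earlier results of these data known. Alternatives were DESeq2 1.42.0, RLE, upper-quartile and ERCC scaling, other filters and thresholds, other sets of libraries, the replicate number as a block, and each library left out in turn.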

Additional observations from a re-analysis of the deposited data

Results flagged for a closer look

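For 16 genes named in the report, the AfaR minus ErlR difference itself differed between FaDu and Cal27 by the interaction term of edgeR's quasi-likelihood test over 12 libraries (adjusted over 16240 genes), with 2 libraries per group. Values are log2 fold changes of FaDu minus those of Cal27.

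Among cadherins and mesenchymal genes, VIM differed by -5.72 (-0.08 in FaDu and 5.65 in Cal27, adjusted p = 2.23e-08) and SPARC by -6.83 (-2.89 and 3.95, adjusted p = 1.53e-06). CDH1 differed by 2.25 (0.47 and -1.77, adjusted p = 2.09e-05), CDH2 by -1.53 (1.59 and 3.13, adjusted p = 0.00486) and TGFB1 by -2.29 (-0.69 and 1.602, adjusted p = 9.11e-05). The VIM values rest on counts of 20798 and 21866 in the Cal27 AfaR libraries against 396 and 363 in the Cal27 ErlR libraries, whereas all 6 FaDu libraries held between 317 and 448.

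Among receptors and regulators of growth, EGFR differed by 1.27 (0.19 and -1.08, adjusted p = 0.000171), ERBB3 by 1.88 (0.36 and -1.51, adjusted p = 0.00748), MYC by 1.67 (-0.40 and -2.06, adjusted p = 0.000263) and AURKA by 0.90 (0.12 and -0.77, adjusted p = 0.0108). None of these passed within FaDu.

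Among the genes with large differences in FaDu, ALDH1L2 differed by 2.98 (3.22 and 0.25, adjusted p = 8.65e-05) and IFI27 by 1.89 (3.31 and 1.43, adjusted p = 0.0129). KLK6 differed by -2.54 (-3.03 and -0.49, adjusted p = 0.00138), CLMP by -3.44 (-2.86 and 0.58, adjusted p = 7.57e-05), WNT10A by -3.54 (-2.58 and 0.97, adjusted p = 0.00194) and TMPRSS11E by -3.64 (-2.94 and 0.71, adjusted p = 0.0305). These genes were named for their size in FaDu. The value of SNORD30, -8.92 (adjusted p = 0.00178), was fitted on 0 counts in FaDu AfaR, depends on the prior count and is no bound.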

How the results depend on the processing

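Of the 897 genes called, 671 were higher in AfaR and 226 in ErlR. Scaling to the spike-ins gave 437 and 743, and no filter on low counts gave 1033 higher in AfaR. A test against a fold change of 2 (glmTreat) called 57 genes, 39 and 18, and an unadjusted p called 1497, 1127 and 370. Leaving out 1 library gave 343 to 914 genes, 239 to 695 higher in AfaR and 101 to 264 higher in ErlR, lowest without AfaR replicate 2 (371) and ErlR replicate 2 (343); where this left a group with 1 library, it was assumed to vary like the others. DESeq2 on 6 libraries called 757 genes and RLE scaling 896. The replicate numbers did not pair the libraries (correlation of deviations between AfaR and ErlR -0.158), and with them as a block 759 genes were called, 562 and 197. Of the interaction with Cal27, 2679 genes were called, 1184 higher and 1495 lower in FaDu, against 658 and 2258 with spike-in scaling, 2624 with the replicate block and 2083 to 2692 without 1 library. The 17 stretches became 73 with windows of 15 genes, 11 with 51 and 9 with genes of at least 5 CPM. Of 126 named genes 113 passed, of which none changed sign, 82 passed under every alternative that kept all FaDu libraries and 45 also when each library was left out. Of the 13 that did not pass, 6 changed sign. With spike-in scaling EGFR was at -0.12, ERBB2 at -0.22, MET at -0.19 and AURKA at -0.18, and with 1 library left out ERBB3 ranged from -0.020 to 0.658, VIM from -0.243 to 0.076 and AURKA from -0.050 to 0.274, each with the changed sign without AfaR replicate 2. In simulated data 78% of differences of 1 on the log2 scale were recovered by adjusted p alone, without the fold limit. That share holds for genes above 1 CPM with no spread particular to a gene. The causes of these changes were not tested.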

Other observations

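Some lineage genes and enzymes outside the groups above also differed. Of all tested genes 4.45% were called toward AfaR and 1.5% toward ErlR, and 8.06% and 7.65% passed. Several lists in this section lie near these shares, so their counts describe single genes and not the lists. Of 11 squamous lineage transcription factors FOXE1 and SOX2 were called, both toward AfaR. FOXE1, a forkhead factor of the pharyngeal endoderm, measured 7.05 and 9.39 CPM in AfaR, 2.49 and 1.58 in ErlR and 2.80 and 3.31 in parental cells (log2 fold change 2.01 with a standard error of 0.31, adjusted p = 0.00529). SOX2, a stem cell factor of the foregut epithelium, was at 6.395 and 9.39 CPM in AfaR and 2.92 and 2.41 in ErlR (log2 fold change 1.57 with a standard error of 0.29, adjusted p = 0.0103). Of 8 tested secretory genes LCN2 (lipocalin 2), an iron-binding defence protein, was called toward ErlR, at 70.0 and 45.8 CPM against 7.81 and 13.7 in AfaR (log2 fold change -2.42 with a standard error of 0.29, adjusted p = 0.0024), and MUC1 toward AfaR. Of 20 HOX genes HOXA13 and HOXD13 were called toward AfaR (2.91 and 1.40), the former at 0.470 and 1.47 CPM. Of 4 tested cancer-testis genes MAGEA3 and MAGEA6, near-identical paralogs whose reads may be shared, were called toward ErlR at about 1 CPM or less. PTGS2 (cyclooxygenase 2), at 8.27 and 14.01 CPM in ErlR and 4.19 and 3.76 in AfaR with 0.902 and 1.78 in parental cells, was the called gene of 3 that passed among 9 prostaglandin genes, all toward ErlR. Of these genes FOXE1 and LCN2 passed when any 1 AfaR or ErlR library was left out. SOX2, MUC1, HOXA13, HOXD13, MAGEA3, MAGEA6 and PTGS2 did not pass without AfaR replicate 2 or without ErlR replicate 2.

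In the YAP and TEAD list 3 of 13 genes passed each way. NT5E (CD73), which makes extracellular adenosine, measured 126 and 182 CPM in ErlR, 33.9 and 42.9 in AfaR and 30.7 and 24.0 in parental cells (log2 fold change -2.00 with a standard error of 0.20, adjusted p = 0.00119), while CCN1 lay at 0.98. Of 16 tested AHR and drug metabolism genes 4 passed toward AfaR and 1 toward ErlR. ALDH3A1, an aldehyde dehydrogenase, was at 155 and 311 CPM in AfaR and 47.2 and 82.8 in ErlR (log2 fold change 1.84 with a standard error of 0.38, adjusted p = 0.0142), and CYP1A1 and CYP24A1 gave 2.46 and 2.02. Of 16 NRF2 targets 4 passed toward AfaR and 2 toward ErlR, with SLC7A11, the cystine importer, at 189 and 138 CPM and 78.9 and 69.2 CPM (log2 fold change 1.14 with a standard error of 0.16, adjusted p = 0.00358). Of 19 hypoxia and glycolysis genes 5 passed toward AfaR and 2 toward ErlR. EGLN3 and ALDOC gave 1.24 and 1.13, and lactate dehydrogenase LDHA was at 1733 and 1463 CPM in ErlR and 996 and 861 in AfaR (-0.78). Of 15 BCL2 family genes BCL2 was called toward AfaR (1.30) and PMAIP1 (NOXA) toward ErlR (-1.16), and BOK and BCL2L2 passed toward ErlR. Of 19 axon guidance genes 3 passed toward AfaR, with SEMA3E and NTN4 called at 1.84 and 1.79, and 5 toward ErlR, with SLIT2 called at -1.14. None of 21 cholesterol and fatty acid genes passed (median -0.27). With spike-in scaling 9 of them passed toward ErlR. Without AfaR replicate 2 ALDH3A1, CYP1A1, CYP24A1, EGLN3, BCL2, BCL2L2, SEMA3E, NTN4 and SLIT2 did not pass, and without ErlR replicate 2 CYP24A1, BCL2, BCL2L2, SEMA3E, NTN4 and SLIT2 did not.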
